A study of Mus musculus with 15 samples.

Results

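The genes that load peptides onto major histocompatibility complex (MHC) class I molecules were followed in the kidneys of 15 mice. They were taken as a listed set of 9 genes: the heavy chains H2-K1, H2-D1 and H2-T23, the light chain B2m, the peptide transporter subunits Tap1 and Tap2, the bridging protein Tapbp, the trimming peptidase Erap1 and the transactivator Nlrc5. The value of a gene was the sum of the FPKM (fragments per kilobase of transcript, scaled to the mapped library) of its annotated transcripts. Of the 9 genes, 8 had such a sum and all 8 were among the 12364 genes tested. Nlrc5, the regulator of class I transcription, was not analysed here.

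The mice were male, of the C57BL/6 strain and WT genotype, bought at 8 weeks of age, and each group held 5 of them. The Control group received saline for 28 days, the Ang II group received angiotensin II at 500 ng/kg/min over the same period, and the Ang II + QDG group received this infusion with Qingda granule, a Chinese herbal formula, at 1.145 g/kg/d. Every mouse carried a subcutaneous osmotic pump, and mice without QDG were gavaged with water. RNA-seq of renal tissue asked which transcripts the infusion changes and which of these QDG changes again. The paper describes rRNA depletion of the total RNA, followed by a kit that isolates poly(A)-tailed mRNA. The spacing of the low values implied 68900000 to 81300000 mapped reads or fragments per mouse. Proximal tubule markers summed to 3120 to 4350 FPKM in every mouse, and all 6 had values, so that the renal label could be checked. Of 16 leukocyte markers, 7 had values, and their sum was 9.48 to 28.4 FPKM in all mice but replicate 4 of Ang II + QDG, where it was 93.1 FPKM. The share of FPKM in mitochondrially encoded transcripts was 18.5% to 20.7% in Control mice, 15.4% to 16% in Ang II mice and 16.9% to 19.8% in Ang II + QDG mice.

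MHC class I molecules display fragments of a cell's own proteins to cytotoxic T cells. Peptides cut by the proteasome are carried into the endoplasmic reticulum by the TAP transporter, trimmed there by ERAP1 and loaded, with tapasin as a bridge, onto a heavy chain paired with B2m, which the heavy chain needs to reach the cell surface. H2-K1 and H2-D1 encode the classical heavy chains of the mouse, and H2-T23 encodes Qa-1, a class Ib molecule read by inhibitory receptors of natural killer cells. Most nucleated cells, renal epithelium included, express the system, and interferons raise it.

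Promoters of class I genes are known for an interferon response element and, next to it, a module in which an X2 box of the CREB family lies upstream of a Y box, an inverted CCAAT bound by NF-Y. The 200 bases upstream of the RefSeq start were read for 7 of the 9 genes on GRCm38.p6. No window was at hand for Tap2 and Nlrc5. The windows of B2m, which was called lower in Ang II, and of H2-K1, a heavy chain that pairs with it, are given 5′ to 3′ on the strand of the gene. B2m lies on the plus strand (chr2:122147487-122147686) and H2-K1 on the minus strand (chr17:34000348-34000547). Capitals mark matches to GAANNGAAA or to the longer GAAA, 2 free bases and GAAA (both interferon type), TGACG (CREB type) and CCAAT or its reverse complement ATTGG, each searched on both strands, and no match overlapped another.
B2m: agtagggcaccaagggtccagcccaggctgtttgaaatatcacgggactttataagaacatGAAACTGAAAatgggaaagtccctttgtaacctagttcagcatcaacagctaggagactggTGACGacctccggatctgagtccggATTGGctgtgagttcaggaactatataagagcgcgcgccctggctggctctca
H2-K1: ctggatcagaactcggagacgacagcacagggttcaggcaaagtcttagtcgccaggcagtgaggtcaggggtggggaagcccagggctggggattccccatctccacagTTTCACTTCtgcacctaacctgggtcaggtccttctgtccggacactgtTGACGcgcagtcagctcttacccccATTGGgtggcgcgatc
In B2m, H2-K1 and H2-D1 the TGACG and the ATTGG stood 20 bases apart, and these stretches of 30 bases are set side by side, with the same capitals, because only these 3 members had the pair.
B2m: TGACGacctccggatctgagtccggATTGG
H2-K1: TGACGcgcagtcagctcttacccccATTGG
H2-D1: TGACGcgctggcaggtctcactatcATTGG
The stretch lay 78 to 49 bases upstream of the B2m start (chr2:122147609-122147638, plus strand), 41 to 12 upstream of the H2-K1 start (chr17:34000359-34000388, minus strand) and 101 to 72 upstream of the H2-D1 start (chr17:35262993-35263022, plus strand). H2-K1 and H2-D1 were identical at 23 of the 30 positions, H2-K1 and B2m at 13, and H2-D1 and B2m at 12. Of all 32851 windows of this length, 94 (0.286%) had TGACG followed by ATTGG after 10 to 30 bases.

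An interferon-type match was found upstream of 4 members. It read TTTCACTTC, the reverse complement of GAANNGAAA, in H2-K1 and H2-D1, where it ended 82 and 142 bases upstream of the start. The longer form was found in B2m (GAAACTGAAA, 139 to 130 bases upstream) and, on the other strand, in H2-T23 (TTTCTCTTTC, 124 to 115 bases upstream). The shorter form occurred in 5.0% of all windows and the longer form in 2.27%. H2-T23 also had a CCAAT 52 to 48 bases upstream but no TGACG. Tap1 had a TGACG 86 to 82 bases upstream, Tapbp an ATTGG 165 to 161 bases upstream, and Erap1 had none of the motifs. TGACG alone occurred in 15.7% of windows and CCAAT in 29.3%. The RefSeq start was not always that of the main annotated transcript summed here. The windows of H2-D1 and Erap1 lay inside the span of that transcript. So did most of the window of H2-T23, its matches included, and most of that of Tapbp, without its match. For these genes the window is therefore not the sequence upstream of that transcript. These matches are descriptions of letters and not of binding.

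In the Control group the heavy and light chains were among the abundant renal mRNAs, and the other 4 members with values had lower levels. B2m had 374 ± 71.0 FPKM (SD, n = 5), rank 117 of the 12364 genes. H2-K1 had 146 ± 23.2 FPKM (rank 408), H2-D1 128 ± 18 (rank 485) and H2-T23 66.1 ± 7.20 (rank 945). Tap2 and Erap1, at 6.28 ± 1.25 and 6.23 ± 2.93 FPKM, stood near the middle of the order, with ranks 6341 and 6373. Tapbp had 3.21 ± 2.37 FPKM and Tap1 2.61 ± 0.382. The ranges of B2m, of H2-K1 with H2-D1, and of H2-T23 lay apart, whereas H2-K1 and H2-D1 overlapped, as did neighbours in the order from Tap2 down. The 4 chains rested on 4660 to 30419 reads per mouse, Tap2 on 1348 to 2191, Erap1 on 750 to 4217, Tapbp on 87 to 2111 and Tap1 on 154 to 722. The class I heavy chains are a family of near-identical copies, so the division of reads among them is uncertain.

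**Figure D1:**
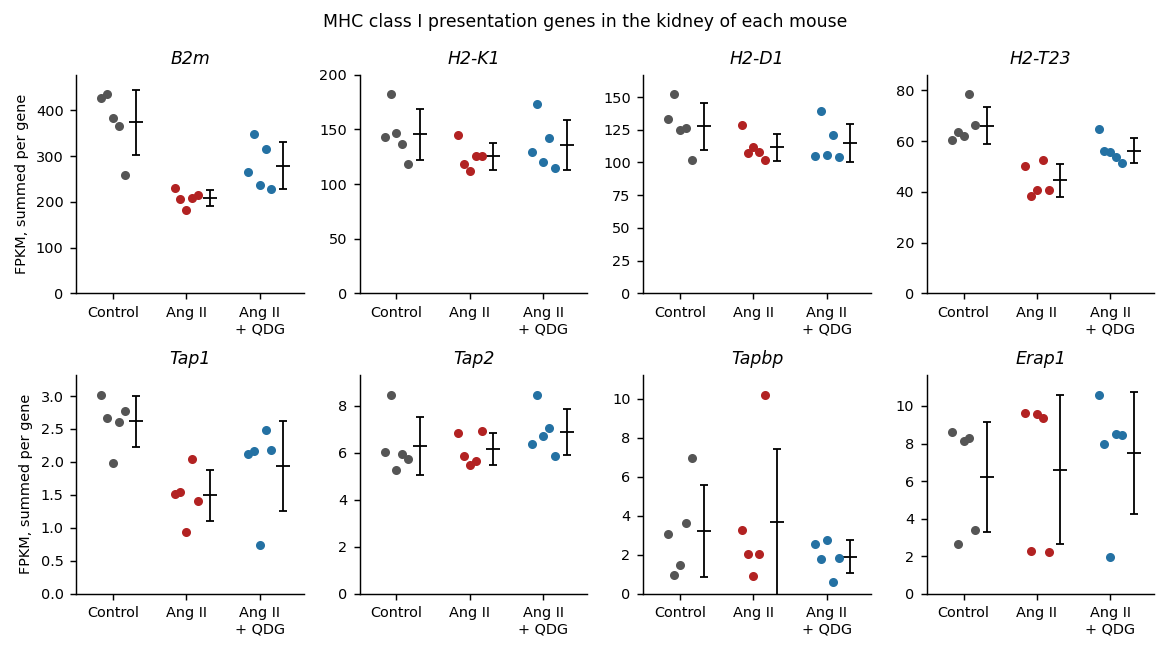
Summed FPKM of the 8 members with values in each mouse of the Control (grey), Ang II (red) and Ang II + QDG (blue) groups, with the mean and SD of 5 mice drawn beside the points and each vertical axis starting at 0. All Ang II mice lie below all Control mice for B2m and H2-T23, and Tapbp and Erap1 scatter widely within groups (the lower end of the Ang II bar of Tapbp falls below 0 and is not drawn).

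To see what Ang II infusion changed, the Ang II and Control groups were compared. B2m and H2-T23 were downregulated in Ang II, and none of the 8 members was upregulated at an adjusted p under 0.05 (limma with Benjamini-Hochberg adjustment over all genes). Among all genes tested, 0.995% were called lower and 4.95% higher, against 2 and 0 of the 8 members. The calls behind these shares depended on single mice (271 higher and 66 lower without Control replicate 1). At an unadjusted p under 0.05, 3 members were lower and 0 higher, against 4.82% and 17.9% of all genes. With quantile normalization the calls over all genes were 228 higher and 268 lower in place of 612 and 123, while B2m and H2-T23 remained lower (log2 fold change −0.87 and −0.65). The median log2 fold change was −0.19 over the members and 0.08 over all genes. No member reached a fold change of 2, the threshold of the study. Together with an unadjusted p under 0.05, 0.388% of genes passed it downward and 0.663% upward. The study set this rule on transcripts, and here it was counted on gene sums. In a kidney homogenate, fewer cells that express a gene and less RNA of it per cell cannot be told apart. The transcripts listed for Control mice also differed from those listed for infused mice, and an effect of this cannot be told apart from the infusion.

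B2m (ENSMUSG00000060802, chr2:122147686-122153083 on GRCm38, plus strand) has a single annotated transcript. It had 428, 435, 384, 366 and 258 FPKM in the Control mice and 230, 207, 183, 209 and 215 FPKM in the Ang II mice. The groups did not overlap, and the lowest Control mouse was replicate 5. Over all genes, 1.42% were separated in this direction. The Ang II mean of 209 ± 17.2 FPKM (SD, n = 5) was 0.558 of the Control mean. The log2 fold change was −0.82 (standard error 0.14, 95% interval −1.13 to −0.51, adjusted p = 0.00864), and it was −0.95 without Control replicate 5. Rescaled to the total without mitochondrially encoded transcripts, it was −0.84 (adjusted p = 0.00876).

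H2-T23 (ENSMUSG00000067212, chr17:36029773-36032855, minus strand) had 60.4, 63.4, 62.0, 78.4 and 66.3 FPKM in Control and 50.2, 38.4, 40.7, 52.6 and 40.6 FPKM in Ang II. The ranges again lay apart, and the Ang II mean of 44.5 ± 6.40 FPKM was 0.673 of the Control mean. Its log2 fold change was −0.56 (standard error 0.10, 95% interval −0.78 to −0.35, adjusted p = 0.00848). The protein-coding transcript ENSMUST00000102678, which held 92.6% of the sum, fell by 0.60 on the log2 scale (adjusted p = 0.0215 over 28812 transcripts tested, of which 0.691% were called in either direction).

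The classical heavy chains did not pass the test. H2-K1 (ENSMUSG00000061232, chr17:33996017-34000347, minus strand) had 143, 182, 147, 137 and 118 FPKM in Control and 145, 118, 112, 126 and 126 FPKM in Ang II. H2-D1 (ENSMUSG00000073411, chr17:35262730-35267499, plus strand) had 133, 152, 125, 126 and 102 FPKM in Control and 129, 107, 112, 108 and 102 FPKM in Ang II. The groups overlapped for both genes, and the H2-D1 of all Ang II mice lay within the Control range. The log2 fold change was −0.20 for H2-K1 (95% interval −0.47 to 0.06, adjusted p = 0.345) and −0.18 for H2-D1 (95% interval −0.41 to 0.04, adjusted p = 0.324). Both were −0.12 without Control replicate 2, the highest mouse for both genes, and −0.31 and −0.29 with median scaling. The intervals reach below −0.4, so a moderate decrease is within the error.

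The transcripts of H2-K1 did not all go the same way. ENSMUST00000025181, with 79.3% of the sum, had 118 ± 19.3 FPKM in Control and 95 ± 10.4 in Ang II (log2 fold change −0.30, adjusted p = 0.263). ENSMUST00000172912, with 13%, had 17.6 ± 4.10 and 17.0 ± 3.41 FPKM. The 892-base transcript ENSMUST00000173075, named after its values were seen, averaged 9.25 ± 2.53 FPKM in Control, 12.7 ± 1.98 in Ang II and 7.75 ± 1.09 with QDG (log2 fold change 0.45 with the infusion, adjusted p = 0.219, and −0.65 with QDG added to it, adjusted p = 0.15). Its share of the gene's FPKM was 6.54% ± 2.43, 10.3% ± 1.90 and 5.80% ± 1.09 in these groups. The Ang II range of 7.24% to 12.5% overlapped with 10.4% in Control replicate 5 and with 7.39% in Ang II + QDG replicate 1. H2-D1 was carried by ENSMUST00000172785, which held 96.8% of its sum.

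The peptide transporter subunits differed in what they showed. Tap1 (ENSMUSG00000037321, chr17:34187553-34197225, plus strand) had 3.02, 2.67, 1.99, 2.61 and 2.78 FPKM in Control and 1.51, 1.55, 0.943, 2.04 and 1.41 FPKM in Ang II. Only Ang II replicate 4 reached into the Control range. The log2 fold change of −0.54 (95% interval −0.92 to −0.17) had an adjusted p of 0.0841. With a pseudocount of 0.1 or 0.01 FPKM in place of 1, it was −0.79 or −0.83 (adjusted p = 0.112 and 0.119). The adjusted p was 0.0219 without replicate 3 of Ang II + QDG, which enters the shared estimate of the spread. Its transcript ENSMUST00000170086 held 70.4% of the sum (log2 fold change −0.60, adjusted p = 0.161), and the rest was a retained-intron transcript, ENSMUST00000168351. Tap2 (ENSMUSG00000024339, chr17:34203527-34216321, plus strand), the other subunit, had 5.26 to 8.45 FPKM in Control and 5.49 to 6.91 in Ang II, with a log2 fold change of −0.01 (95% interval −0.27 to 0.24, adjusted p = 0.963). ENSMUST00000025197 held 84.6% of its sum and the retained-intron transcript ENSMUST00000127543 the other 15.4%. Whether Tap1 and Tap2 differed from each other was not tested.

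Tapbp and Erap1 were too variable for a comparison with 5 mice per group. Tapbp (ENSMUSG00000024308, chr17:33915899-33929292, plus strand) had 3.08, 0.959, 1.46, 3.61 and 6.97 FPKM in Control and 3.24, 2.06, 0.894, 2.06 and 10.2 in Ang II. The 95% interval of its log2 fold change ran from −0.93 to 1.02. Erap1 (ENSMUSG00000021583, chr13:74639568-74693201, plus strand) had 8.59, 2.67, 8.16, 8.31 and 3.39 FPKM in Control and 9.60, 2.29, 9.58, 9.36 and 2.22 in Ang II, that is, a high and a low level within both groups. Its interval ran from −1.04 to 0.995. The retained-intron transcripts ENSMUST00000172888 of Tapbp and ENSMUST00000220594 of Erap1 held 21.8% and 20.1% of the sums, and ENSMUST00000025161 and ENSMUST00000169114 held the rest. Transcripts that the authors assembled carry no gene name, so reads of these genes on such transcripts are not in the sums.

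**Figure D2:**
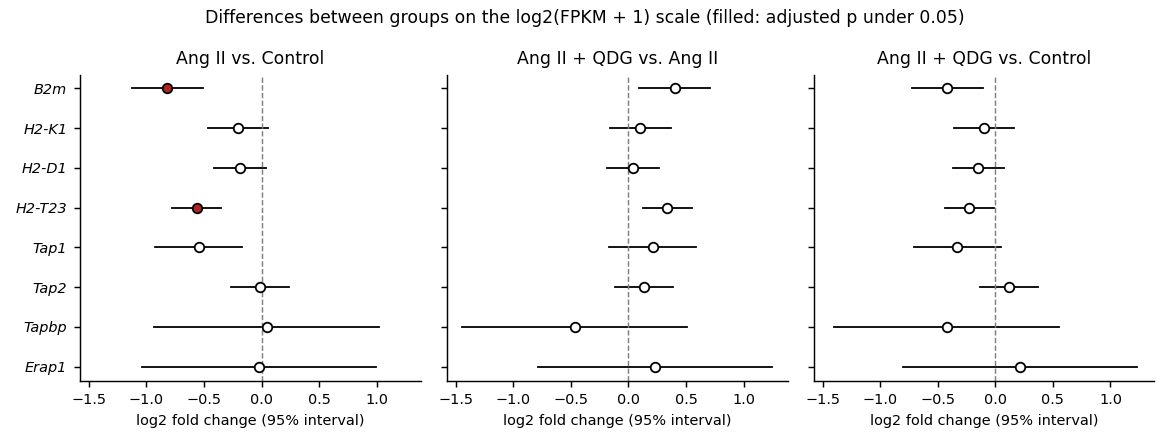
Log2 fold change of each member with its 95% interval in the 3 comparisons, on the log2(FPKM + 1) scale, with filled points where the adjusted p was under 0.05. Only B2m (−0.82) and H2-T23 (−0.56) in Ang II vs. Control are filled, and the intervals of Tapbp and Erap1 span about 2 log2 units.

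To see what QDG changed under the infusion, Ang II + QDG was compared with Ang II, with the same Ang II mice as above. No member passed the test in either direction, against 0.526% of all genes called higher and 1.29% called lower (97 and 97 genes with quantile normalization, and 7 and 46 without Ang II replicate 2, in place of 65 and 159). At an unadjusted p under 0.05 limma gave 2 members higher and 0 lower, against 6% and 10.4% of all genes. These 2 were again H2-T23 and B2m.

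B2m had 265, 348, 238, 315 and 229 FPKM in the Ang II + QDG mice, a mean of 279 ± 51.1 (SD, n = 5). Replicate 5 alone was not above the highest Ang II mouse, which had 230 FPKM. The log2 fold change over Ang II was 0.40 (standard error 0.14, 95% interval 0.09 to 0.71, adjusted p = 0.173). H2-T23 had 64.6, 56.2, 55.6, 53.9 and 51.2 FPKM, of which replicate 5 alone fell within the Ang II range. Its log2 fold change was 0.34 (95% interval 0.13 to 0.55, adjusted p = 0.0944), and 0.41 with an adjusted p of 0.0363 after quantile normalization. Without replicate 4 of Ang II + QDG, where leukocyte markers were highest, the log2 fold changes were 0.35 for B2m and 0.35 for H2-T23.

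The other members were close between these groups or too variable to place. H2-K1 had 129, 173, 120, 142 and 115 FPKM in Ang II + QDG (log2 fold change 0.10, 95% interval −0.16 to 0.37) and H2-D1 had 105, 139, 106, 121 and 104 FPKM (0.04, −0.19 to 0.26). Without replicate 2 of Ang II + QDG, the highest mouse of that group, these were 0.014 and −0.031. Tap1 had 2.12, 2.16, 0.742, 2.48 and 2.18 FPKM, all but replicate 3 above the highest Ang II mouse (log2 fold change 0.21, 95% interval −0.17 to 0.59, adjusted p = 0.596). This was 0.39 (adjusted p = 0.161) without that mouse, and 0.13 without Ang II replicate 3. Tap2 ranged from 5.84 to 8.46 FPKM (0.14, −0.12 to 0.39). Tapbp ranged from 0.608 to 2.73 FPKM (−0.47, −1.44 to 0.51) and Erap1 from 1.94 to 10.6 FPKM (0.23, −0.78 to 1.25).

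Against Control, the Ang II + QDG group showed no called member, against 0.0971% of genes higher and 0.0324% lower (12 and 4 genes, which were 0 and 0 without Control replicate 4 and 91 and 19 without Control replicate 2). At an unadjusted p under 0.05 limma gave 2 members lower and 0 higher, against 3.72% and 10.7% of genes. B2m had a log2 fold change of −0.42 (95% interval −0.73 to −0.11, adjusted p = 0.209) and H2-T23 of −0.23 (95% interval −0.44 to −0.01, adjusted p = 0.314). The median over the members was −0.19 and over all genes 0.06. For both genes the Ang II + QDG mean lay between the other means, and its mice overlapped with mice of each of the other groups.

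The light chain was then set against its partners within each mouse, as ratios of FPKM with no test. B2m divided by the sum of H2-K1 and H2-D1 was 1.55, 1.30, 1.41, 1.39 and 1.17 in Control, 0.839, 0.921, 0.816, 0.895 and 0.942 in Ang II mice, and 1.13, 1.12, 1.05, 1.20 and 1.04 with QDG. The Ang II mice were below all mice of the other groups, and the other groups overlapped only between 1.17 and 1.20. H2-T23 divided by the same sum was 0.247 ± 0.0498, 0.188 ± 0.0212 and 0.228 ± 0.0369 in the same order, with overlap between all groups. The ratio of H2-K1 to H2-D1 was 1.14 ± 0.0526, 1.13 ± 0.0827 and 1.18 ± 0.0612.

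**Figure D3:**
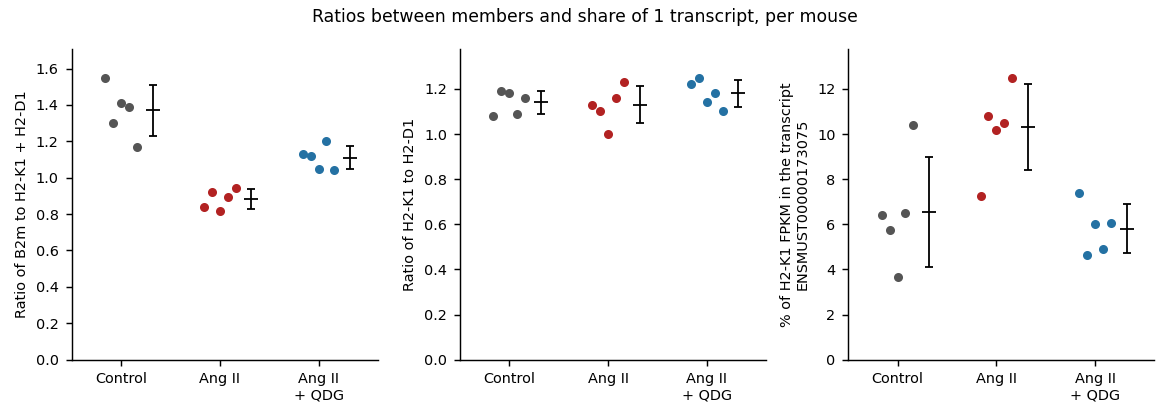
Ratio of B2m to H2-K1 plus H2-D1, ratio of H2-K1 to H2-D1, and percent of H2-K1 FPKM in the 892-base transcript ENSMUST00000173075, per mouse, with mean and SD of 5 mice per group and axes starting at 0. The B2m ratio of the Ang II mice (0.816 to 0.942) lies below that of all other mice, while the H2-K1 to H2-D1 ratio lies between 1.00 and 1.25 throughout.

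How far the members varied together among mice of the same group was measured against B2m, after subtraction of each group's mean from the log2 values, over 15 mice and 7 relations. H2-K1 followed B2m (Pearson's r = 0.888, permutation adjusted p = 0.00056, and Spearman's rho = 0.929, adjusted p = 0.00014), and so did H2-D1 (r = 0.861, adjusted p = 0.0021, and rho = 0.821, adjusted p = 0.00882). Without the 2 mice farthest from the median of B2m, Control replicates 1 and 2, r was 0.93 and 0.855. Tap2 had r = 0.642 (permutation adjusted p = 0.103) and rho = 0.664 (adjusted p = 0.0367). H2-T23, the other member that fell in Ang II, had an r with B2m of 0.0218 (permutation adjusted p = 0.935). For Tap1, Erap1 and Tapbp, r was 0.324, 0.208 and −0.348 (permutation adjusted p = 0.43, 0.531 and 0.357). The values of a mouse share its library and its scale, and a group of 5 mice was taken as too small for an r of its own.

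**Figure D4:**
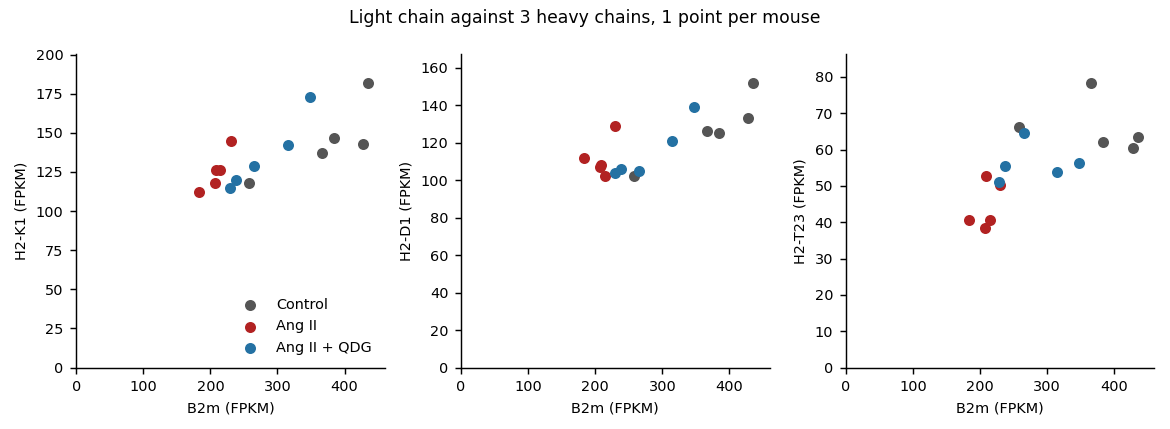
B2m against H2-K1, H2-D1 and H2-T23 in FPKM, with 1 point per mouse coloured by group and all axes starting at 0. H2-K1 tends to rise with B2m among mice of a group, as does H2-D1 in the Control and Ang II + QDG mice and less plainly in the Ang II mice, whereas at a given H2-K1 or H2-D1 the Ang II mice lie at lower B2m, and H2-T23 shows no such relation within groups.

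Outside the members, the 10 genes whose group-centred log2 values had the highest median r with the 8 members over the 15 mice were Paip2b (0.628), Fzd2 (0.618), Rpl14 (0.60), March3 (0.593), Siah1b (0.588), Cmtm3 (0.585), Hspa4l (0.582), Sesn3 (0.577), Map2 (0.571) and Gng11 (0.57). Paip2b had an r of 0.905 with H2-K1 and 0.86 with B2m. None of the 10 was called with the infusion or with QDG.

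The wider class I pathway was counted over lists. Of 13 further class I and class Ib heavy chains 6 were tested, and 1 was called lower and 0 higher in Ang II, against 0.995% and 4.95% of all genes. This was H2-T22, which encodes a class Ib ligand of gamma delta T cells and had 41.3 ± 6.06 FPKM in Ang II and 52.9 ± 3.92 in Control (log2 fold change −0.36, adjusted p = 0.0304). With QDG limma called 0 of the 6 (0 at an unadjusted p under 0.05), H2-T22 at 0.16 (adjusted p = 0.376). Of 5 class I-like molecules that pair with B2m 3 were tested and limma called 0 in any comparison. At an unadjusted p under 0.05, 1 was lower in Ang II vs. Control, against 4.82% of all genes. With QDG against Ang II 2 were higher, against 6% of all genes. With QDG, compared with Ang II alone, the nearest of these was Mr1, which presents vitamin B metabolites (2.59 ± 0.412 against 1.37 ± 0.649 FPKM, log2 fold change 0.63, adjusted p = 0.0574), followed by Fcgrt, the neonatal Fc receptor (0.24, adjusted p = 0.134). None of the 10 receptors of class I in the list was among the genes tested.

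Of 12 genes that supply peptides, 2 were called higher and 0 lower in Ang II vs. Control, where 4.95% of all genes were called higher. Lap3, a cytosolic leucine aminopeptidase, had 24.9 ± 1.64 FPKM in Control and 235 ± 29.2 in Ang II (log2 fold change 3.18, adjusted p = 0.00742). Among the mice given QDG it stood at a low level of 22.4 and 22.2 FPKM in replicates 1 and 2 and at a high level of 169, 163 and 170 FPKM in the others (log2 fold change vs. Ang II −1.62, adjusted p = 0.137). Psme3, a proteasome activator, was 37.2 ± 0.798 FPKM in Ang II and 32.5 ± 1.43 in Control (0.19, adjusted p = 0.0318), and it was the single gene of the list called after QDG (log2 fold change vs. Ang II −0.24, adjusted p = 0.0255). The immunoproteasome subunits Psmb8 and Psmb9 had log2 fold changes of −0.56 and −0.56 in Ang II vs. Control (adjusted p = 0.0762 and 0.16). Their levels were 3.34 and 1.45 FPKM in Ang II and 5.34 and 2.63 FPKM in Control. The other immunoproteasome subunit, Psmb10, was at 5.66 FPKM in Ang II and 5.58 in Control (0.02, adjusted p = 0.957).

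Of 10 genes of peptide loading and folding, 1 was called higher in Ang II, the translocon subunit Sec61a1 (42.1 ± 2.71 against 35.7 ± 1.52 FPKM, log2 fold change 0.23, adjusted p = 0.0266), and this single call is to be read against the same 4.95%. With QDG, compared with Ang II, limma called 0 of them. At an unadjusted p under 0.05, 1 was higher and 4 were lower, against 6% and 10.4% of all genes. The smallest p belonged to calreticulin, Calr (−0.35, adjusted p = 0.0507), and to Sec61a1 (−0.21, adjusted p = 0.069). Of 14 genes that control class I transcription 13 were tested and 1 was called higher in Ang II, a share close to that over all genes. This was Nfyc, a subunit of NF-Y, which binds the CCAAT box (0.27, adjusted p = 0.0369). Irf1, which acts on the interferon element, stood at 0.42 (adjusted p = 0.301). Of 9 genes of interferon gamma signalling 7 were tested and 0 were called in any comparison. At an unadjusted p under 0.05, 2 were higher with QDG against Ang II, against 6% of all genes. In Ang II + QDG vs. Control 1 was higher, against 10.7% of all genes, and in Ang II vs. Control there was none. For QDG the smallest p belonged to the receptor chains Ifngr1 (0.18, adjusted p = 0.267) and Ifngr2 (0.22, adjusted p = 0.301).

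The interferon-stimulated genes held the most calls among the lists. Of 30 genes 23 were tested, and 11 were called lower and 0 higher in Ang II, against 0.995% of all genes lower. All 23 had a negative log2 fold change, against 35.2% of all genes, with a median of −0.63. Control replicate 5, the Control mouse lowest for B2m, stood near the Ang II mice for 3 of them viewed by mouse, named after their values were seen. Ifit3 was at 4.41 FPKM there, 9.28 to 24.9 in the other Control mice and 1.87 to 4.18 in Ang II, Irgm1 at 17.7, 27.7 to 40.7 and 11.9 to 18.1, and Bst2 at 13.6, 23.4 to 47.0 and 9.67 to 18.5. Ifit1, an RNA-binding antiviral protein, had 1.42 ± 0.412 FPKM in Ang II and 5.16 ± 1.92 in Control (−1.30, adjusted p = 0.00742). Ddx58 and Ifih1, sensors of viral RNA, fell by 0.56 and 0.58 on the log2 scale (adjusted p = 0.0104 and 0.0123), and the interferon-inducible GTPase Igtp fell by 0.98 (adjusted p = 0.0141). The count was 7 without Control replicate 1, 7 without Ang II replicate 2 and 7 when these 10 mice were fitted alone. With QDG, limma called 0 of the 23 (3 higher at an unadjusted p under 0.05, against 6% of all genes), although 22 had a positive log2 fold change, with a median of 0.14, where 53.7% of all genes were negative. The smallest p there belonged to Ddx58 (0.38, adjusted p = 0.0728) and Ifih1 (0.32, adjusted p = 0.163). Against Control, Ang II + QDG had 0 called and 12 lower at an unadjusted p under 0.05 (3.72% of all genes were), led by Ifit1 (−1.18, adjusted p = 0.0562) and Isg15, a ubiquitin-like protein (−1.06, adjusted p = 0.0963). The 0 called became 3 without Control replicate 5 and 1 without Control replicate 2.

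Of 11 genes of MHC class II presentation 7 were tested, and limma called 0 in Ang II vs. Control, although all 7 had a negative log2 fold change (median −0.52) and 4 had an unadjusted p under 0.05. Over all genes 35.2% were negative and 4.82% were lower at that unadjusted p. The first were H2-DMa, which loads class II molecules (−0.74, adjusted p = 0.0645), and the protease Ctss (−0.88, adjusted p = 0.0868). Class II molecules mark antigen-presenting cells, and leukocyte markers were therefore set beside the members. The sum of the 7 leukocyte markers with values was 14.6 to 28.4 FPKM in Control mice, 9.48 to 21.1 in Ang II mice and 17.6 to 93.1 in mice given QDG. Of these, 4 were tested and limma called 0 in any comparison. At an unadjusted p under 0.05, 1 was higher with QDG than in Ang II alone, against 6% of all genes. All 4 had a negative log2 fold change in Ang II, with Adgre1, the F4/80 antigen of macrophages, at −0.39 (adjusted p = 0.223) and Cd68 at −0.34 (adjusted p = 0.321). S100a8 was listed at 0 in 3 mice, and the other 9 markers of the list, among them Cd3e and Cd8a, were not analysed here. Replicate 4 of Ang II + QDG stood apart: Lyz2 had 58.0 FPKM, H2-Aa 107 and S100a8 25.9, above all other mice, whereas its B2m of 315 FPKM was below that of replicate 2. The part of leukocytes and of the mitochondrial share in the lower B2m and H2-T23 of Ang II was not tested beyond the rescaling given above.

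**Figure D5:**
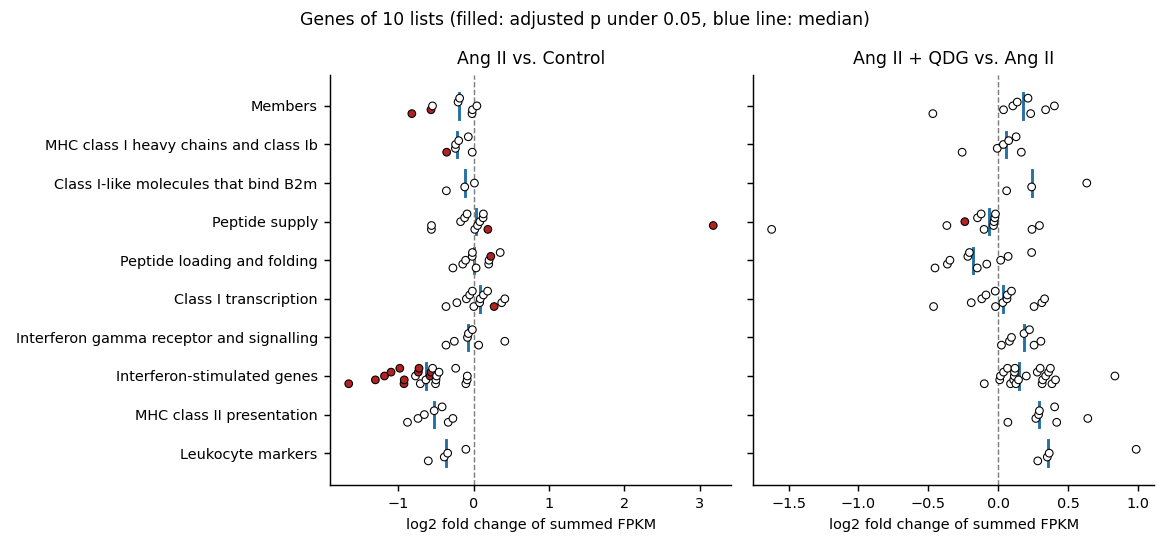
Log2 fold change of each tested gene of 10 lists for the infusion against Control (left) and for QDG against the infusion alone (right), filled where the adjusted p was under 0.05, with the list's median as a blue line. On the left, the filled points of the interferon-stimulated genes (11 of 23) and of the members (2 of 8) lie below 0, and those of peptide supply, loading and class I transcription lie above 0.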

How the data were processed

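The authors sequenced renal RNA of 15 mice, prepared with rRNA depletion and a poly(A) mRNA isolation kit, in paired-end mode. They deposited 1 table of FPKM per mouse, with a value per transcript. The submitters' processing notes name mm10 and limma. The aligner and assembler are not given in the sources used here. The unit was read from the values: per transcript length they were whole multiples of 1 constant per mouse for 98.5% to 98.7% of values under 200 reads (tolerance 0.05), which also gave the depth. The Control files list 41477 transcripts and the others 42310, with 40054 in all 15 files, of which 11141 are assembled and unnamed. The list thus differed between Control and the other groups. In any comparison with Control, an effect of this cannot be told apart from that of the infusion.

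Transcripts in all 15 files were named with GENCODE release M21 (21) on GRCm38 and summed per gene. Of 61 annotated transcripts of the members 20 had values. Nlrc5 was left out, so the planned correlation with Nlrc5 could not be run, and B2m was taken in its place after the data were seen. Genes that reached 1 FPKM in 5 or more mice were tested with limma 3.58.1 (R 4.3.3, lmFit and eBayes with a trend, two-sided) on log2(FPKM + 1), in 1 model of 3 groups with 12 residual degrees of freedom, and called at a Benjamini-Hochberg adjusted p under 0.05. The study's rule, a fold change of at least 2 with an unadjusted p under 0.05, was counted beside it. The pseudocount of 1 makes fold changes of low genes smaller. Correlations used 100000 permutations of mice within groups and were two-sided. Promoter windows were read from RefSeq tables of GRCm38.p6. Python 3.11.15, numpy 2.4.6 and scipy 1.17.1 were used, and the fit was tested on simulated data, where in 1 draw the share of false calls exceeded the adjusted threshold.

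The members and lists were chosen with earlier results of these data known. All 9 members are named, and from each list up to 4 genes with the smallest p among those called in a comparison or, where none was called, the 2 with the smallest p. A few further genes of a list were named after their values were seen (Psmb8, Psmb9, Psmb10, Irf1, Ifit3, Irgm1, Bst2, Adgre1 beside Cd68, Lyz2, S100a8 and H2-Aa), as were single transcripts under 10% of a gene's sum. Some genes of the lists are not reported here by name. No pair of files held equal values. The labels do not say how the kidneys were sampled, and replicates are separate mice numbered in accession order. Alternatives covered the pseudocount, the filter, the scaling, the transcripts summed, the groups fitted, the variance trend and each mouse left out.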

Additional observations from a re-analysis of the deposited data

Results flagged for a closer look

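In 24 groups of 5 mice, 1 for each gene and group, the gap between an extreme mouse and its nearest neighbour was compared with the range of the group, and 3 stood out, where chance gives about 1 in 20. Tap1 was at 0.742 FPKM in replicate 3 of Ang II + QDG, with the other mice of that group between 2.12 and 2.48 FPKM. This Ang II + QDG mouse had 6.70 FPKM of Tap2 and 238 FPKM of B2m, the second lowest B2m of its group. Tap2 was at 8.45 FPKM in replicate 2 of Control, with the others between 5.26 and 6.04. Tapbp was at 10.2 FPKM in replicate 5 of Ang II, with the others between 0.894 and 3.24.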

How the results depend on the processing

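No paired analysis was made, because the groups are made of separate mice that were assigned at random. In Ang II vs. Control, B2m was called lower under all 11 alternatives (log2 fold change −0.92 to −0.82, adjusted p 0.00524 to 0.0236) and without each of the 15 mice (−0.95 to −0.76), as was H2-T23 (−0.67 to −0.56, adjusted p 0.00417 to 0.028, and −0.63 to −0.50). The members called lower numbered 2 to 3. The third was Tap1, with quantile normalization (−0.65, adjusted p = 0.0478), when only the groups compared were fitted (adjusted p = 0.0497) and without Ang II + QDG replicate 3. The members called higher in Ang II + QDG vs. Ang II became 1, H2-T23, with quantile normalization. Tap1 and Tapbp had no value when 1 FPKM was required in all 15 mice.

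Directions turned only where the log2 fold change was small against its error. In Ang II vs. Control, Tapbp was −0.042 with quantile normalization, −0.036 with median scaling and −0.10 with protein-coding transcripts only, where Erap1 was 0.19 and Tap2 0.073. Without each mouse in turn, the ranges were −0.34 to 0.32 for Tapbp, −0.24 to 0.24 for Erap1 and −0.065 to 0.083 for Tap2. In Ang II + QDG vs. Ang II they were −0.026 to 0.58 for Erap1 and −0.031 to 0.090 for H2-D1, and in Ang II + QDG vs. Control −0.0032 to 0.56 for Erap1. The r of B2m with H2-T23 was −0.069 with median scaling. The cause was not tested.

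Over all genes in Ang II vs. Control, the calls were 325 higher and 83 lower with protein-coding transcripts only, 392 and 69 with only the groups compared, and 214 and 288 with median scaling. Without each mouse in turn they were 271 to 688 and 66 to 114, and the higher calls fell by over 1.5 times without Control replicates 1 (271), 3 (292) or 5 (404) or Ang II replicates 2 (322) or 5 (276). In Ang II + QDG vs. Ang II they were 7 to 62 and 46 to 202, with the higher calls over 1.5 times fewer without Control replicate 3 (40), Ang II replicates 2 (7), 3 (30) or 5 (9) or Ang II + QDG replicates 2 (9), 3 (20), 4 (14) or 5 (10). In Ang II + QDG vs. Control they were 0 to 91 and 0 to 19. The interferon-stimulated genes called lower numbered 7 to 15 over the alternatives, which for the lists were added after the data were seen, and the class II genes called lower 0 to 2. In Ang II + QDG vs. Control the interferon-stimulated genes called lower, 0 in the report, became 3 with every listed transcript summed and 1 with quantile normalization, median scaling or 1 FPKM required in all mice. The standard error was 0.14 for B2m but 0.45 for Tapbp and 0.47 for Erap1, which limits what these comparisons can resolve.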

Other observations

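Marker genes of other renal cells were also compared. Of 4 podocyte genes 2 were called higher in Ang II than in Control (4.95% of all genes were). Among them was Podxl, which encodes podocalyxin (62.1 ± 6.84 and 48.2 ± 3.33 FPKM, SD, n = 5, log2 fold change 0.35, adjusted p = 0.0277 from limma). Of 6 endothelial genes 1 was called higher in Ang II (4.95% of all genes were), the secreted vascular factor Egfl7 (16.3 ± 4.48 and 8.02 ± 1.74 FPKM, 0.92, adjusted p = 0.014).

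Of the tubular lists limma called 0 genes in any comparison. Of the 6 proximal tubule genes, 3 passed an unadjusted p of 0.05 with the infusion (2 higher and 1 lower). Over all genes, 17.9% were higher and 4.82% lower at that unadjusted p. The smallest p in the list belonged to Slc34a1, the sodium phosphate cotransporter (0.29, adjusted p = 0.125). Of the 4 genes of the thick ascending limb and distal tubule it belonged to Slc12a3 (0.63, adjusted p = 0.185, the 1 gene of the list with an unadjusted p under 0.05), and of the 3 tested collecting duct genes to Atp6v1g3 (0.14, adjusted p = 0.371). With QDG against Ang II, the organic anion transporter Slc22a6 had a log2 fold change of −0.38 (adjusted p = 0.0649) and uromodulin, Umod, of 0.36 (adjusted p = 0.18).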
